A study of Mus musculus with 21 samples.

Results

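Anti-Myc chromatin immunoprecipitation sequencing (ChIP-seq) of mouse embryoid bodies was compared with and without induction of Myc-tagged Sox7. The comparison was chosen by sample label and uses 9 of the 21 samples: 4 induced and 4 uninduced anti-Myc samples and 1 input. All 9 came from A2lox-Sox7-Myc, a single mouse embryonic stem cell line derived from E14Tg2a that carries the doxycycline-inducible transgene, so the uninduced cells carry it too. Cells were differentiated as embryoid bodies, floating aggregates in which mesoderm forms, and were used unsorted at day 4. The induced group had 1 µg/ml doxycycline for 24 h. The uninduced group and the input had none, and the input had no antibody. In these unsorted aggregates, binding in few cells and weak binding in many cells cannot be told apart. Peaks of the 8 ChIP lists were merged wherever they overlapped by 1 bp, which gave 4548 regions, and each region was placed by the number of libraries that listed a peak there. A site is here a region listed in 2, 3 or 4 induced libraries and in 0 uninduced libraries. There were 653 such sites, 14.4% of the regions: 418 in 2 lists (9.19%), 140 in 3 lists (3.08%) and 95 in 4 lists (2.09%). No peak list measures expression, so the cell types in these aggregates could not be checked against markers.

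Sox7 belongs, with Sox17 and Sox18, to the SOXF group of transcription factors. Their HMG box bends DNA and binds short motifs of the ACAAT or ACAAAG type, often in distal enhancers. SOXF factors are known for their roles in endothelial and blood-forming progenitors and in extraembryonic and definitive endoderm. ChIP with an antibody against the Myc tag recovers DNA bound by the tagged protein. Peaks also found without induction or in the input are not specific to induction, and their source was not tested.

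The sequences below show the stretch just before a gene start where a site in 3 or 4 induced lists overlapped it and the stretch held a SOX-type motif. The window is the 250 bases before a RefSeq start (GRCm38.p6), 5′ to 3′ on the gene's strand. Capitals mark ACAAT or ACAAAG, searched on both strands, so that ATTGT and CTTTGT are the reverse forms. Among 10 windows under such sites, 6 held a match (60.0%, exact 95% interval 26.2 to 87.8), and all 6 are shown. Ap2m1 encodes a subunit of the clathrin adaptor AP2, Clcn4 a chloride-proton exchanger, Mtf2 a Polycomb-like partner of PRC2, Vangl2 a core planar cell polarity protein and Srsf7 a splicing factor. The role of the predicted gene Gm29958 is not given here.
Ap2m1, chr16:20535230-20535479, plus strand: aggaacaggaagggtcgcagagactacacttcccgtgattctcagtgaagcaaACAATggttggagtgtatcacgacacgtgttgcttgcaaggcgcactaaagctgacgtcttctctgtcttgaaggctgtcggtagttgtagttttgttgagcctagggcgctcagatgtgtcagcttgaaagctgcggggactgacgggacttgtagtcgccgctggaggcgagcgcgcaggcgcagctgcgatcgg
Clcn4, chr7:7299558-7299807, minus strand: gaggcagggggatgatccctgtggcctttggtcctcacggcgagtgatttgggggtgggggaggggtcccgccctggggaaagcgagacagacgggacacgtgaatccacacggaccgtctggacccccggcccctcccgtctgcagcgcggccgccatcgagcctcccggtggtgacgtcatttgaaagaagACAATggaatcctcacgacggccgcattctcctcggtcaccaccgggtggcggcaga
Mtf2, chr5:108065424-108065673, plus strand: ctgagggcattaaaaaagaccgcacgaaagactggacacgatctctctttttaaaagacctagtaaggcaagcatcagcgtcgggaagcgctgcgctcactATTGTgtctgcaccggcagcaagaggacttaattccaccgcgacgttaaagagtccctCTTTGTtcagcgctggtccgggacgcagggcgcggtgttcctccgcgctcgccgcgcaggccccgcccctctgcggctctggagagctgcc
Vangl2, chr1:172027296-172027545, minus strand: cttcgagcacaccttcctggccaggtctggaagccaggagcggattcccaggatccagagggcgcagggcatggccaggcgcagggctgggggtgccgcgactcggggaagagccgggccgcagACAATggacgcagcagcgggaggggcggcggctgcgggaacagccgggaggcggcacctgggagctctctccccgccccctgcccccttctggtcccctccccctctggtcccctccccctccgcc
Srsf7, chr17:80207306-80207555, minus strand: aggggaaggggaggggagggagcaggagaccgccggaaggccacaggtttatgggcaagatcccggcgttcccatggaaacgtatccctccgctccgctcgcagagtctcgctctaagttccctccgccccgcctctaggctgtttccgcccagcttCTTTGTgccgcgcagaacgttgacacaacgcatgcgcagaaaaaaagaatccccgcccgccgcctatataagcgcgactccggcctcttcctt
Gm29958, chr11:63618951-63619200, plus strand: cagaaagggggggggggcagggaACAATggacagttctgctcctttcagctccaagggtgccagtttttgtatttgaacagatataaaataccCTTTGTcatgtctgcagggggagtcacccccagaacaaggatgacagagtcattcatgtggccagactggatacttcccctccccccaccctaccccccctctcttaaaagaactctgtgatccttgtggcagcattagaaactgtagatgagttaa

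Over all 21263 promoter windows of protein-coding genes, 35.5% held either motif, 25.1% ACAAT and 14.9% ACAAAG. Under any of the 653 sites lay 38 windows of 37 genes, and 16 of them held either motif (42.1%, 26.3 to 59.2), an interval that includes the share over all windows. In 4 of the 6 printed windows the match reads on as ACAATGG, a form singled out after these sequences were seen, so these 4 support nothing. ACAATGG, which contains ACAAT and was searched on both strands, stood in 4 of the 28 windows under 2-list sites (14.3%, 4.03 to 32.7) and in 2.37% of all windows (503 of 21263). The windows of Dnajb4 and Fubp1, genes that face away from each other, lie under the same site, overlap and are among those 4, which are therefore not independent. The windows of Phc1, Zscan2, Tedc2 and Gm6337, also under sites in 4 lists, held none of these motifs. A match is a description of the sequence and was not tested as a binding site.

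The induced lists held 1511, 1851, 2807 and 1061 peaks in replicates 1 to 4, and the uninduced lists 929, 1015, 1059 and 772. The input list held 689. In uninduced replicates 2 and 4, 585 of 772 peaks of the shorter list began at an identical base (75.8%), while no further pair exceeded 1.04%. They differ by less than other replicates do and stand for 1 library here, so 4 induced are set against 3 uninduced libraries. Among the induced libraries, replicate 2 stood apart. Of its peaks off the input, 36.3% lay on open chromatin, taken as any ATAC-seq region of the same line, against 64.3%, 68.7% and 64.6% in replicates 1, 3 and 4. The depth of every library is unknown because the lists hold no counts, so a peak that is missing may reflect a shallower library. The labels do not tie replicates to different cultures. The p-values therefore describe the spread of these libraries alone, and that spread may be technical.

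**Figure D1:**
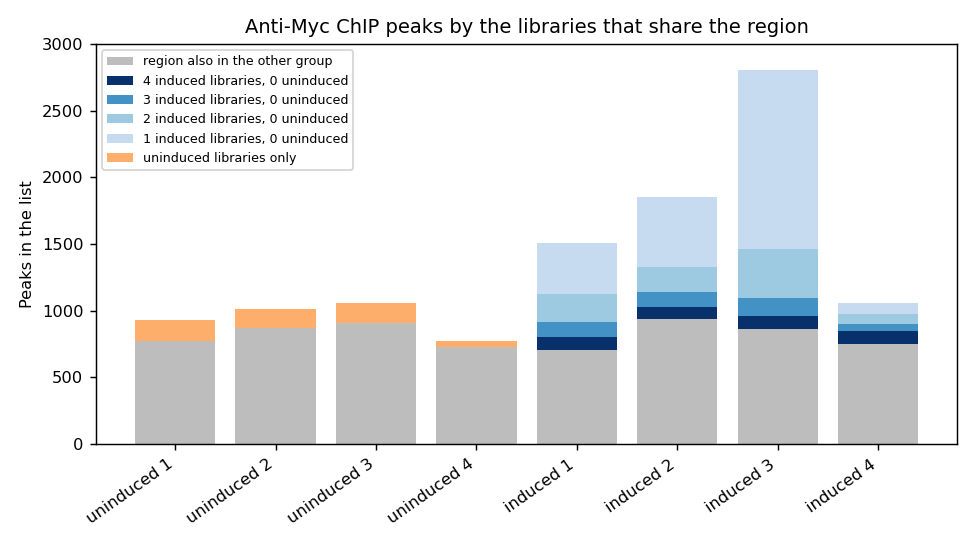
Number of peaks in each anti-Myc ChIP list (vertical axis), stacked by how many induced and uninduced libraries share the region. Uninduced 2 and 4 count as 1 library. Regions seen in 1 induced list make up 1348 of the 2807 peaks of induced replicate 3 and 83 of the 1061 peaks of replicate 4.

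Regions listed in several libraries had higher scores than those in 1 list. The score is each peak's own value from the authors' caller, where a higher score means stronger evidence for the peak. Mean scores had a median of 63.3 in 2 lists, 78.2 in 3 lists and 98.8 in 4 lists, up to 738. Just outside the rule, the 2339 regions in 1 induced list had a median of 51.2, and just inside it the 2-list sites had quartiles of 52.5 and 77.4. In all lists but uninduced replicate 4, where the lowest score was 50.1, peaks began at a score of about 40. With the peaks of a library cut by score into 4 equal bins, those of the top bin recurred more often than those of the lowest bin in all 4 induced libraries. In replicate 3, 16.3% of the lowest bin and 72.5% of the top bin lay in another induced list. The same shares were 35.5% and 94.0% in replicate 1, 31.7% and 79.0% in replicate 2, and 72.6% and 96.3% in replicate 4. These values describe the rule's own measure and were not tested.

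Replicate 3 carried most of the 2-list sites. It was in 364 of the 418 2-list sites, most often with replicate 1 (180 sites) or replicate 2 (137 sites), and replicate 4, the shortest induced list, was in 76. At the 95 sites in 4 lists, replicate 3 gave the highest score at 81 and replicate 4 the lowest at 52. Without replicate 3, and with 2 of the other 3 lists required, 289 sites were left in place of 653. In the other direction, 28 regions (0.616%) were listed in 2 or 3 uninduced and 0 induced libraries, and 2 of those (0.044%) in all 3. These counts cannot be set directly against the 653 sites. They rest on 3 libraries in place of 4, each uninduced list holding fewer peaks than any induced one. Of the 623 regions in 4 induced lists, 478 were in all 3 uninduced libraries as well, and 82.0% of those 478 lay on an input peak.

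**Figure D2:**
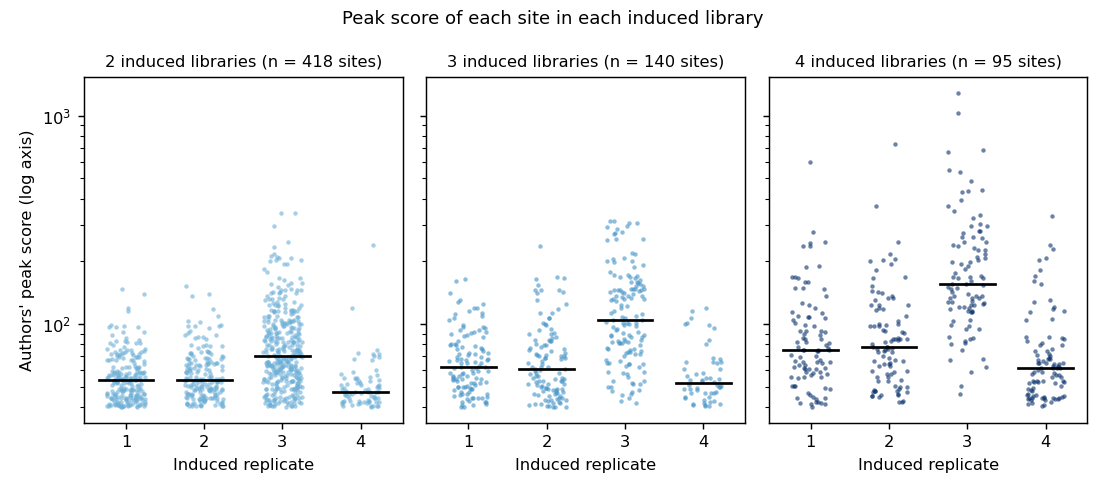
The authors' peak score (vertical log axis) of every site in each induced library that lists it, for sites in 2, 3 and 4 induced lists. Each point is 1 site and black lines are medians, which at 4-list sites are 75.2, 77.4, 156 and 61.4 in replicates 1 to 4.

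Below the strongest 10, the 4-list sites ranked 11 to 20 by mean score fell in the bodies of 6 genes and, for the other 4, more than 50 kb from any protein-coding gene. Vwf encodes von Willebrand factor, the platelet-tethering glycoprotein of endothelial cells. Its site (chr6:125552392-125553442) scored 160, 134, 367 and 105 in induced replicates 1 to 4. Replicate 3 stood well above the other 3 there, and all 8 ATAC libraries had a peak. Col4a1 encodes a chain of collagen IV, the network-forming collagen of basement membranes. Its site (chr8:11308250-11309429) lay inside the gene, 3.38 kb from a start, and scored 126, 98.4, 435 and 53.4. Scores there spread widely, and an ATAC peak was called in 3 induced and 0 uninduced libraries. Pax7, a paired-box factor of neural crest and muscle precursors, had a site (chr4:139803635-139804703) scoring 81.7, 123, 227 and 181, with no ATAC peak in any library. The calcium-activated chloride channel gene Ano2 (chr6:125897470-125898493) scored 149, 98.0, 275 and 64.7 and also had no ATAC peak. In the kinesin gene Kif28 (chr1:179722738-179723804) the scores were 107, 143, 350 and 171, and in Cdrt4 (chr11:62983470-62984539) they were 169, 204, 199 and 155. Kif28 had an ATAC peak in 4 induced and 0 uninduced libraries. Cdrt4 was the most even of these across replicates, with an ATAC peak in 1 induced library. The highest of the 4 sites far from genes (chr13:52222608-52223762) scored 167, 85.9, 438 and 131.

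The 8 highest 3-list sites included 5 in gene bodies. Ets1 and Pdgfb belong to vascular biology: Ets1 is an ETS-domain transcription factor of endothelial and lymphoid cells, and Pdgfb is the growth factor with which endothelium recruits pericytes. The Ets1 site (chr9:32692100-32693087) scored 165, 118 and 273 in replicates 1 to 3 and was not listed in replicate 4. The Pdgfb site (chr15:80004206-80005357) scored 130, 42.9 and 296 in the same replicates. Both were missing from the shortest list, and each had ATAC peaks in induced libraries alone (3 and 2 of 4). Sox5, a SOXD factor of cartilage and neural cells, had a site (chr6:144454051-144455105) of 141, 154 and 254, with ATAC peaks in 4 induced and 0 uninduced libraries. The kinase gene Pak7 (146, 312 and 95.5) and the receptor phosphatase gene Ptpre (113, 311 and 56.6) were listed in replicates 2, 3 and 4.

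Among the highest 2-list sites, some rested on 1 strong and 1 weak peak and others on closer scores. Opcml, a cell-adhesion gene of neurons, scored 43.9 in replicate 1 and 341 in replicate 3. Eef1a1, the translation elongation factor often used as a housekeeping gene, had a site 24.3 kb upstream scoring 51.7 in replicate 2 and 295 in replicate 3. Zfp609 scored 88.3 and 234 in replicates 1 and 3, and Mdm1 41.2 and 248 in replicates 2 and 3. In contrast, Mttp, which loads lipid onto apolipoprotein B, scored 153 and 145 in replicates 2 and 3, and Etl4 139 and 167. The predicted gene Gm40363 scored 139 and 241 in replicates 1 and 4 without a peak in the longest list.

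The share of sites in genes was much the same in the 3 tiers. Sites overlapped the body of a protein-coding gene at 43.3% (38.5 to 48.2), 45.7% (37.3 to 54.3) and 44.2% (34.0 to 54.8) in 2, 3 and 4 lists, against 44.3% of all 4548 regions and 41.5% of the 429 uninduced-only regions. Intervals are exact binomial at 95% and cover counting error over regions only. Whether a site lies in an exon or an intron was not analysed here. Counting each site once, 52 of 653 (7.96%, 6.0 to 10.3) lay within 1 kb of a gene start, 247 (37.8%) elsewhere in a gene body and 145 (22.2%, 19.1 to 25.6) more than 50 kb from any gene. Near a start also lay 21.4% of the 51264 ATAC regions, 6.09% of all 4548 ChIP regions, 3.96% of uninduced-only regions and 2.47% of input peaks. The share of sites near a start was thus below that of open chromatin as a whole, above that of the input and close to that of all ChIP regions. Of all ChIP regions, 39.2% lay elsewhere in a gene body and 22.9% far from genes, also close to the sites. Of the 95 4-list sites, 3 (3.16%) lay up to 50 kb before a gene and more than 1 kb from a start, 12 (12.6%) up to 50 kb after a gene, and 8 (8.42%) within 50 kb on a side that is not known. Among all sites these classes held 82 (12.6%), 81 (12.4%) and 46 (7.04%), and among all 4548 regions 13.6%, 11.8% and 6.42%. The class before a gene held 16.4% of the 3-list and 13.4% of the 2-list sites, so its low share in 4 lists rests on few regions of 1 tier. Starts were known for 79.9% of the protein-coding genes, and those of chromosome 18, with 28 sites, were not used here.

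**Figure D3:**
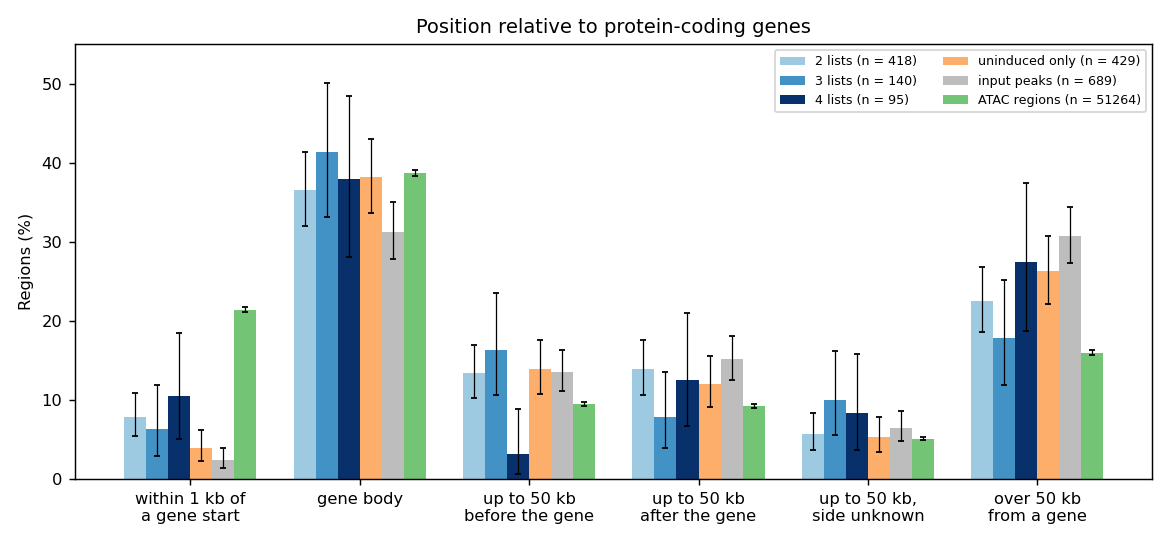
Share of regions (vertical axis, %) in each class of position relative to protein-coding genes, for sites in 2, 3 and 4 induced lists, uninduced-only regions, input peaks and ATAC regions. Error bars are exact 95% binomial intervals over regions. ATAC regions stand at 21.4% near starts, and the ChIP sites between 6.43% and 10.5%.

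Genes with a site inside were longer, by median, than protein-coding genes as a whole. The 290 genes with a site inside had a median length of 83.3 kb, against 17.2 kb over all protein-coding genes. Lengths of genes overlapped by other ChIP regions were not compared, so this cannot be called particular to the sites. When the genes were cut into 3 equal parts, 43.0% of 235 site and gene pairs fell in the part next to the start, 26.8% in the middle and 30.2% at the far end. The 2339 regions in 1 induced list were placed much the same (42.6%, 27.1% and 30.3%). The X chromosome held 2 sites (0.306%), both in 2 lists, against 1.39% of all ChIP regions and 2.71% of ATAC regions.

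Sites at gene starts included genes of general cell function. Of the 10 near-start sites in 4 lists, 6 covered the start itself: those of Clcn4, Ap2m1, Phc1, Mtf2, Zscan2 and Tedc2. All 6 had an ATAC peak in all 4 uninduced and all 4 induced libraries. Phc1 encodes a subunit of Polycomb repressive complex PRC1, and its site (chr6:122340129-122341176) scored 81.5, 45.5, 198 and 52.9 in replicates 1 to 4. Mtf2 (chr5:108065049-108066087) scored 61.0, 99.5, 116 and 72.0. Ap2m1 (chr16:20534707-20535800) scored 120, 152, 121 and 52.3. The scores of Mtf2 and Ap2m1 were more even across replicates than that of Phc1, which was led by replicate 3. The others were Clcn4 (86.6 to 168), the zinc-finger gene Zscan2 (46.3 to 137) and Tedc2, of the tubulin delta and epsilon complex (57.6 to 94.8). The remaining 4 lay upstream: 704 bp from Pik3c2a, a class II phosphoinositide 3-kinase, 498 bp from Aasdh, 947 bp from the ribonuclease gene Rnase4 and 133 bp from Gm6337. The last spans 6058337 to 6064813 on chromosome 14, beside a predicted gene, and is uncertain if near-identical copies split its reads.

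Of 21887 protein-coding genes, 494 (2.26%) were assigned at least 1 site, by overlap or, failing that, as the nearest gene within 50 kb. For sites in 3 or 4 lists the number was 183 (0.836%), for sites in 2 lists 322 (1.47%), for regions in 1 induced list 1669 (7.63%) and for uninduced-only regions 302 (1.38%). The gene lists below and their members were chosen with earlier results of these data known. A share above 2.26% is therefore a description and supports nothing by itself. In the endoderm list, 8 of 28 genes had a site, 4 of them in 3 or 4 lists. In the basement membrane and matrix list 7 of 29 had one, 3 of them in 3 or 4 lists, and 4 genes stand in both (Col4a1, Lamb1, Lamc1 and Sparc). Lamb1 and Lamc1 encode the beta and gamma chains that pair in most laminins, and Sparc a collagen-binding matricellular protein. Lamb1 had a pair of sites 24.0 kb apart, both upstream. The 1 in 3 lists (chr12:31221286-31222313) scored 47.0, 71.0 and 67.4 in replicates 1 to 3, and the 1 in 2 lists 77.5 and 124 in replicates 1 and 3. Lamc1 (47.3 and 110 in replicates 2 and 3) and Sparc (82.5 and 132 in replicates 1 and 3) had sites in 2 lists. The sites of Lamb1, Lamc1 and Sparc all lay over 10 kb from the gene, the 3-list site of Lamb1 at 42.8 kb. None of these 4 had an ATAC peak in an uninduced library.

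Other endoderm genes with a site encode a transcription factor, a secreted protein and a receptor. Ttr, the thyroid hormone carrier transthyretin, had a site in the gene of 49.0, 99.3 and 47.0 in replicates 2 to 4. Gata6, a zinc-finger factor of endoderm and heart, had a site 14.2 kb away of 48.4 and 84.7, and Pth1r, the parathyroid hormone receptor of parietal endoderm, 1 at 5.64 kb upstream of 48.2 and 116, both in replicates 1 and 3. Among other matrix genes, the collagen VI gene Col6a3 had a 4-list site 9.87 kb downstream of 149, 205, 535 and 68.7, with no ATAC peak in any library. The basement membrane proteoglycan gene Hspg2 (42.7 and 114) and the endostatin precursor gene Col18a1 (40.7 and 53.3) had sites in 2 lists. The Col18a1 site lay over 10 kb from the gene. The laminin gene Lama1, of both lists, had an uninduced-only region and no site. Genes of the matrix list are long, with a median of 102 kb, and those of the endoderm list measured 25.5 kb. Without induced replicate 3, the endoderm list kept 4 genes and the matrix list 3, beside 226 of all genes (1.03%). Without replicate 1 the endoderm list kept 5, beside 334 of all genes (1.53%).

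Blood vessel genes with a site made up 13.3% of the endothelial, 13.6% of the Notch and 7.69% of the vessel guidance list, beside 2.26% of all genes. In the endothelial list 4 of 30 genes had one: Vwf, Ets1, Erg, an ETS factor that maintains endothelial identity, and Egfl7, a secreted endothelial matrix protein. Egfl7 had a pair of 2-list sites 1.54 kb apart, 4.51 and 1.93 kb upstream of a start, of 50.5 and 119 in replicates 1 and 4, and of 68.2 and 69.6 in replicates 2 and 3. Each replicate thus listed 1 of the pair. Erg had a weak site 11.4 kb downstream (44.3 and 63.6 in replicates 1 and 3). In the Notch list 3 of 22 genes had a site. Notch4, the endothelial Notch receptor, had a 4-list site in the gene (chr17:34586275-34587419) of 92.3, 76.0, 261 and 71.1, with an ATAC peak in all 8 libraries. The target gene Hey2, a transcriptional repressor, had a 2-list site 5.50 kb downstream (178 and 51.4 in replicates 3 and 4) and the co-activator gene Maml3 1 in its body (67.4 and 94.2 in replicates 2 and 3). The endothelial cadherin gene Cdh5 had an uninduced-only region and no site. Without replicate 3, Notch4 alone was left in the Notch list. Among 26 vessel guidance genes, Spry2 had a 3-list and Spry1 a 2-list site, both encoding inhibitors of receptor tyrosine kinase signalling. The Spry2 site, 23.7 kb upstream, scored 79.5, 158 and 46.8 in replicates 1, 3 and 4, and that of Spry1 40.9 and 81.7 in replicates 1 and 3, without either of which Spry1 drops out.

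The Sox, Hippo, neural, pluripotency, Wnt, BMP, cardiac, housekeeping, blood and early mesoderm lists had 0 to 2 genes each with a site. Sox13, a SOXD factor, had a 4-list site in its body (57.4, 50.1, 134 and 81.2) and a 2-list site 23.5 kb upstream, and with Sox5 it made 2 of 19 Sox genes. Tead1, the DNA-binding partner of the Hippo effector Yap, was the 1 of 23 Hippo genes. Lmo1, a LIM-only cofactor, and Pax7 were the 2 of 20 neural genes, and the Lmo1 site, 22.3 kb downstream, scored 276, 117, 323 and 229. Dnmt3b, a de novo DNA methyltransferase, was 1 of 20 pluripotency genes (48.2, 62.1 and 48.4 in replicates 2 to 4). The Wnt effector gene Ctnnb1 was 1 of 32 Wnt genes (41.4 and 60.6), the BMP target Id3 (43.9 and 40.4) and the receptor gene Tgfbr2 (70.4 and 42.5) were 2 of 34, Gata6 was 1 of 27 cardiac genes and Eef1a1 1 of 15 housekeeping genes. None of 21 blood genes and none of 20 early mesoderm genes had a site, although 3 and 2 of them had a region in 1 induced list. In these 10 lists the counts are 0% to 10.5% of the genes, beside 2.26% of all genes, and several change with 1 library. Without replicate 3 the cardiac, Wnt, BMP and housekeeping lists had 0 genes with a site. Without replicate 1 the cardiac and Wnt lists had 0 and the BMP list 1, without replicate 2 the housekeeping list had 0, and without replicate 4 the BMP list had 1.

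**Figure D4:**
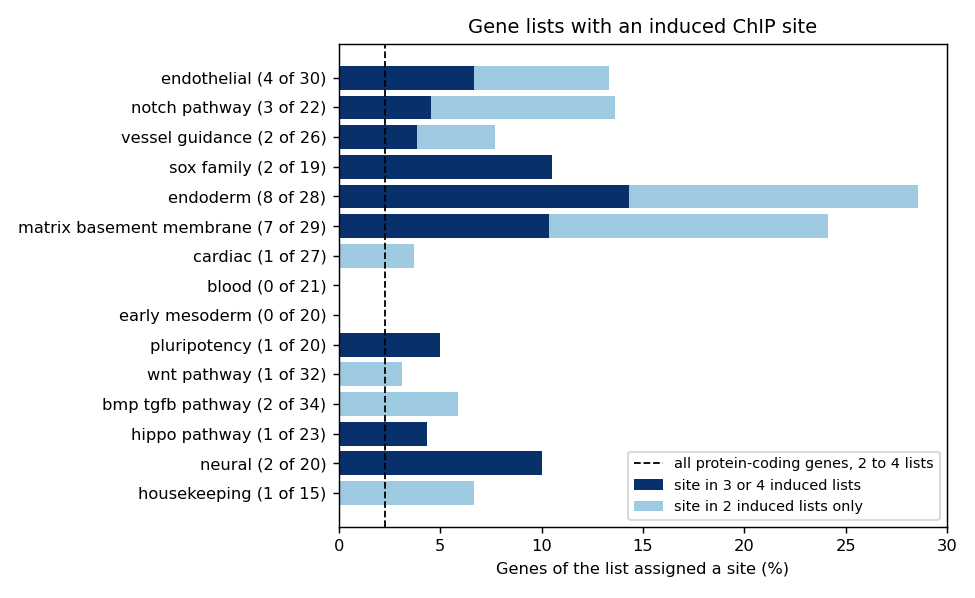
Share of each gene list (horizontal axis, %) assigned a site in 3 or 4 induced lists (dark) or in 2 only (light), with the number of genes in brackets. The dashed line marks the 2.26% of all protein-coding genes. The endoderm list stands at 28.6% and the matrix list at 24.1%, and they share genes with a site. All lists were chosen with earlier results of these data known.

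Of the 494 genes, 24 had more than 1 site, and Ets1 was the 1 gene with 3. The Ets1 sites lay 17.5 and 22.7 kb apart in the gene body. Besides the strong site above, 1 scored 52.1, 90.2 and 88.2 in replicates 1 to 3 and the other 62.9 and 78.8 in replicates 2 and 3. Nmnat2, a neuronal enzyme of NAD synthesis, was the 1 gene with a pair of 4-list sites, 6.07 kb apart. They scored 61.5, 55.5, 133 and 43.8, and 41.7, 45.0, 161 and 41.6, each highest in replicate 3. Gna12, an alpha subunit of heterotrimeric G proteins, had a 4-list site (50.7, 76.9, 296 and 58.7) and a 3-list site (89.4, 79.8 and 145 in replicates 1 to 3) 10.7 kb apart. Aff1, a subunit of the super elongation complex, had a 4-list site (63.4, 45.2, 82.7 and 67.3) and a weak 2-list site. The pairs in Cdrt4, Sox13 and Tead1 lay 38.9, 49.6 and 137 kb apart. Among all sites, 65 (9.95%) had another within 50 kb, at a median gap of 22.8 kb.

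Open chromatin at the sites was more often called in induced cells. ATAC-seq lists came from PDGFRα+FLK1+ cells (CPC, cardiac progenitors in the series' text) and PDGFRα−FLK1+ cells (EPC, endothelial progenitors), with 2 uninduced and 2 induced libraries of each, so sorted cells are set beside an unsorted ChIP. At 4-list sites an ATAC peak was called at 44.2% and 37.9% in uninduced CPC and at 75.8% and 74.7% in induced CPC. In EPC the shares were 64.2% and 54.7% uninduced and 84.2% in both induced libraries. In CPC and in EPC the induced libraries lay above the uninduced ones without overlap. At 3-list sites CPC went from 26.8% ± 4.55 (SD, n = 2) to 65.7% ± 3.03 and EPC from 38.6% ± 5.05 to 72.5% ± 1.52. At 2-list sites CPC went from 25.0% ± 2.20 to 47.8% ± 0.338 and EPC from 34.1% ± 5.24 to 58.7% ± 1.52. Averaged over both cell types, the difference was 23.7 percentage points in 2 lists, 36.4 in 3 lists and 29.5 in 4 lists. In the exact permutation test within cell type (two-sided), p was 0.0556 for each, also after Benjamini-Hochberg adjustment over 3 tiers. This is the smallest value the design allows, so none could pass 0.05. The same difference was 16.7 points at regions in 1 induced list, -0.932 at uninduced-only regions and -2.67 at regions in every library. Differences between tiers were not tested.

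**Figure D5:**
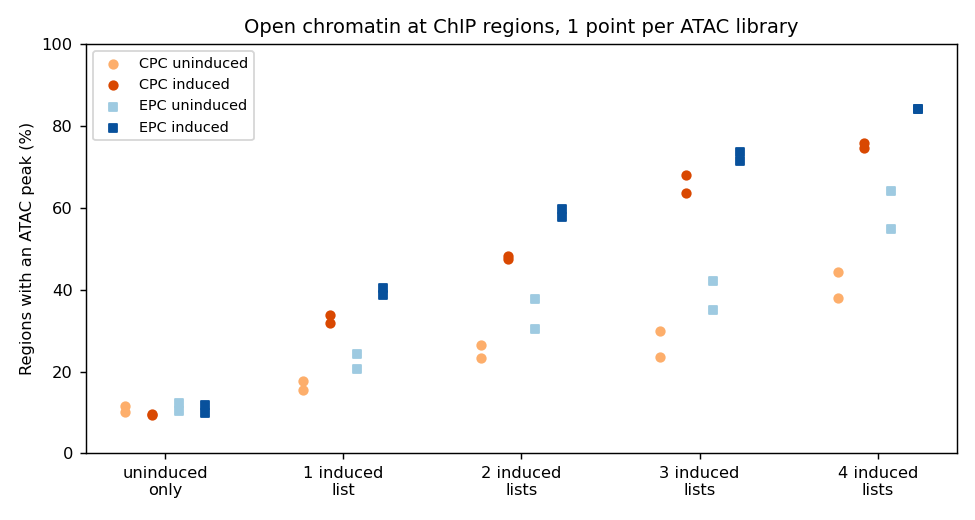
Share of ChIP regions with an ATAC peak (vertical axis, %) by tier, 1 point per ATAC library. At sites in 2, 3 and 4 lists the induced CPC and EPC libraries lie above the uninduced ones of the same cell type, while at uninduced-only regions the EPC means are 11.3% uninduced and 10.8% induced.

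Most sites at gene starts were open without induction. Of the 52 near-start sites, 43 (82.7%, 69.7 to 91.8) had an ATAC peak in an uninduced library, and 3 (5.77%) in induced libraries alone. Of the 247 in gene bodies, 43.3% (37.1 to 49.8) had an uninduced peak and 79 (32.0%) an induced one alone. Far from genes these shares were 48.3% and 24.1%. The share of sites on any ATAC region was 65.8% (61.0 to 70.3) in 2 lists, 89.3% (82.9 to 93.9) in 3 and 90.5% (82.8 to 95.6) in 4. Regions in every library stood nearly as high, at 84.5% (81.0 to 87.6), so a high share is not particular to the sites. It was 52.5% over all 4548 regions, 48.7% in 1 list and 18.6% in uninduced-only regions. Of those 429 regions, 401 were in 1 library, and of the 28 in 2 or 3 uninduced libraries 15 (53.6%) lay on an ATAC region. In 2 lists it moved with replicate 2: 47.0% (39.6 to 54.5) of 183 sites that include it and 80.4% (74.8 to 85.3) of 235 that do not. Only 1 of the 21 sites listed in replicates 2 and 4 lay on an ATAC region. In 3 lists the shares were 89.5% with replicate 2 and 88.5% without it. With sites taken from replicates 1, 3 and 4 alone, the induced minus uninduced difference was 30.7 points in 2 lists and 30.6 in 3.

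Per library, induction was set against no induction in 4 measures, adjusted together, with exact permutation tests (two-sided, 4 against 3, smallest p 0.0571), and none passed 0.05. The number of peaks was 1808 ± 741 with induction (SD, n = 4) and 960 ± 87.1 without (n = 3), and every induced library exceeded every uninduced one (exact p = 0.0571, adjusted p = 0.229). Off the input, 44.6% ± 3.43 of induced and 41.0% ± 1.27 of uninduced peaks lay in a gene body (exact p = 0.171, adjusted p = 0.305). The groups overlapped in range. Near a start lay 7.65% ± 2.58 and 7.45% ± 1.15 (exact p = 0.914), a difference smaller than the spread between replicates. On an ATAC region lay 58.5% ± 14.9 and 42.5% ± 3.16 (exact p = 0.229, adjusted p = 0.305), and induced replicate 2, at 36.3%, was the lowest of all 7 libraries. Without it the difference was 23.3 points in place of 16.0. With peaks on an input peak kept, it was 2.94 points (exact p = 0.743).

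The authors' deposited table of Sox7 regions held 666 entries and overlapped 80.9% of the 2-list sites, 98.6% of the 3-list sites, 98.9% of the 4-list sites and 0 of the 2339 regions in 1 list. By its name it derives from these same ChIP lists, by a rule not given in the sources used here. The overlap is therefore no independent support for the sites. The authors' deposited table of regions shared with Gata4, a zinc-finger factor of heart and endoderm, held 117, all of them on the Sox7 table. In the authors' deposited table, the shared regions took 29.5% (20.6 to 39.7) of the 4-list sites, 12.9% (7.80 to 19.6) of the 3-list and 13.9% (10.7 to 17.6) of the 2-list sites. By position, the authors' deposited shared regions held 19 of the 52 near-start sites (36.5%, 23.6 to 51.0) and 33 of the 247 in gene bodies (13.4%, 9.38 to 18.2). They held 15.9% of sites upstream, 12.3% downstream, 10.9% on an unknown side and 16.6% far from genes. In all, 104 of the 117 shared regions (88.9%) lay on any of the 653 sites. Differences between tiers or positions were not tested. Genes named above with a shared region include Tead1, Lmo1, Notch4, Gna12, Clcn4, Phc1, Mtf2, Tedc2, Rnase4, Lamb1, Egfl7 and Erg. They also include Eef1a1, Zfp609, Vangl2, Dnmt3b, Ctnnb1, Cdrt4, Dnajb4 and Fubp1. For Cdrt4 the shared region is on its 2-list site, 30.3 kb from the gene (mean score 44.3), and not on the 4-list site described above. How that table was made is not given in the sources used here, and the Gata4 data behind it were not analysed here.

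At Sox7 itself (chr14:63943706-63950732), a region inside the gene (chr14:63947894-63948810) was listed in induced replicate 3 alone, at a score of 43.9, close to the lowest listed. It is therefore not a site by the rule used. Reads from the transgene and from the gene cannot be told apart in a peak list.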

How the data were processed

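The submitters' processing notes name the build mm10 (GRCm38) and, without saying what each did, the tools MACS 1.4, Bowtie2, Trimmomatic, SAMtools and bedtools. The authors deposited 1 peak list per library, and every peak carries a score, in the MACS format -10 times the log10 of its p-value. How the authors used the input is not given in the sources used here. Lists hold no counts, so depth is unknown.

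From these lists, peaks were merged at 1 bp overlap, and regions were counted per library in Python 3.11.15 (numpy 2.4.6, pandas 2.3.3, scipy 1.17.1, matplotlib 3.10.9). Uninduced lists 2 and 4 were counted as 1 library: measures of a library used the average of both, and presence needed a peak in 1 of them. Genes and starts came from RefSeq tables of GRCm38.p6: 21887 protein-coding genes, of which 17492 had a start. A region went to every protein-coding gene it overlapped, otherwise to the nearest within 50 kb. Position classes were taken in the order near start (1 kb), gene body, within 50 kb, far. Values per library were compared with exact permutation tests, and shares have exact (Clopper-Pearson) 95% intervals. Merging and counting were tested on simulated data. Same-numbered induced and uninduced lists did not deviate together, and replicate numbers were not used as pairs in the main tests. That does not exclude matched experiments.

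Named genes were the 4-list sites ranked 11 to 20 and the 8 highest in 3 and 2 lists by mean score, members of the gene lists with a site (up to 6 per list from 2-list sites), up to 15 genes with more than 1 site, up to 10 with a site near a start, and Sox7. Dnajb4 and Fubp1 were named after their values were seen. Sites and lists were chosen with earlier results of these data known. Alternatives covered score thresholds, equal list lengths, merging, input, gene sets and leaving out each library. Some genes and 1 gene list are not reported here. RNA-seq samples were not analysed here.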

Additional observations from a re-analysis of the deposited data

Results flagged for a closer look

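In each of the following, 1 of the 4 induced libraries lay far from the other 3, relative to the whole range of the group. Chance flags about 1 in 20 groups of this size. The same rule was applied to peaks per library, peaks on an input peak, shares in gene bodies and near starts, and median score. None of these was flagged. The share of peaks on an ATAC region, off the input, was 36.3% in induced replicate 2, against 64.3%, 68.7% and 64.6% in replicates 1, 3 and 4. Its regions in no other list lay on an ATAC region at 9.14% (6.82 to 11.9), against 38.1%, 68.0% and 32.5% for those of replicates 1, 3 and 4.

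The share of a list that lay in 2-, 3- and 4-list sites was 28.1% in induced replicate 1, against 21.2%, 21.3% and 21.2% in replicates 2, 3 and 4.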

How the results depend on the processing

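Of 147 recomputed values other than gene-list counts, 124 kept their direction and stayed on the same side of 0.05 or near the main value, 16 moved and 7 changed sign. For values with a p-value, the smallest p possible was above 0.05 unless uninduced 2 and 4 counted as 2 libraries (0.0286). Elsewhere such values could not cross 0.05, so their place among the 124 shows a kept direction only. All 7 were the difference in peaks near a gene start (induced minus uninduced, main value 0.203 percentage points): it was -0.121 with uninduced 2 and 4 as 2 libraries, -0.686 at a score of at least 50, and, with a library left out, -0.237 (uninduced 1), -0.133 (uninduced 2), -0.00479 (uninduced 3), -0.635 (induced 1) and -0.0902 (induced 4), a range of -0.635 to 1.39. At a score of at least 100 there were 57, 22 and 14 sites in 2, 3 and 4 lists (93 in all), and with all lists cut to equal length 90, 43 and 28 (161 in all). At a score of at least 50, 54 sites were in 4 lists. Without 1 library at a time, 192 to 461 sites were in 2 lists, 97 to 181 in 3 and 289 to 712 in all; the lowest total and the 192 were without induced replicate 3. With an induced library left out no 4-list tier can be given, and without an uninduced one it held 95 to 100. The share of 3-list sites in a gene body was 36.4% at a score of at least 100 and 37.2% at equal length, and with every gene of the RefSeq table, non-coding ones included, the shares were 59.6%, 56.4% and 56.8% in 2, 3 and 4 lists. Leaving out libraries gave differences of 514 to 1096 peaks, 2.62 to 4.67 points in gene bodies and 12.5 to 23.3 on ATAC regions. With peaks on an input peak kept, the ATAC difference was 2.94 points in place of 16.0. Causes of these changes were not tested, beyond fewer peaks entering at stricter scores and equal lengths. Same-numbered lists correlated at -0.097 to 0.059, which shows no sign of pairing but cannot exclude it. The peak lists of both groups are named expA to expD, so matched experiments remain possible. With the replicate block the differences were 964 peaks (exact p = 0.25, adjusted p = 0.5), 4.64 points in gene bodies (adjusted 0.667), 0.652 near starts (adjusted 0.75) and 18.6 on ATAC regions (adjusted 0.5), where 0.25 is the smallest p possible. Gene-list counts under each alternative, and sites without induced replicate 2, were added after the data were seen: with genes taken within 10 kb the endoderm list had 4 and the matrix list 3, the neural list 1, and the vessel guidance, cardiac, pluripotency, BMP and housekeeping lists 0, beside 374 of all genes (1.71%). At a score of at least 50 the endoderm and matrix lists had 4 each, vessel guidance 1, and cardiac, pluripotency, Wnt and BMP 0, beside 339 (1.55%). Over the 15 reported lists, 30 of 90 recomputed counts moved by over 1.5 times. Unknown depth limits every absence: a site missing from a list had no peak called there, which does not show that it was unbound.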
